A study of Mus musculus with 4 samples.

Results

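The genes described here encode the enzymes that make foreign and endogenous compounds ready for excretion in mouse liver. They were taken by gene name: symbols beginning with Gst (classes alpha, kappa, mu, omega, pi, theta and zeta), Ugt, Sult, Fmo followed by a digit, Ces, Ephx or Aldh, with Aldh1a1 left out. This gave 45 of the 8251 genes that the array measured with a probe set of 1 symbol. They comprise 15 glutathione S-transferases (Gst), 3 UDP-glucuronosyltransferases (Ugt), 9 sulfotransferases (Sult), 2 flavin monooxygenases (Fmo), 5 carboxylesterases (Ces), 2 epoxide hydrolases (Ephx) and 9 aldehyde dehydrogenases (Aldh). The rule reads names alone and uses no signal.

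Messenger RNA of whole liver from male C57BL/6 mice was measured on 4 Affymetrix MG_U74Av2 arrays, 1 per group. The groups were sham-operated mice (sham) and mice without adrenal glands after bilateral adrenalectomy (ADX), each at zeitgeber time (ZT) 2 and 14, where ZT counts hours from lights on. Where 4 values follow each other without labels, they run from sham (ZT2, ZT14) to ADX (ZT2, ZT14). Both operations were followed by standard chow; sham mice drank water and ADX mice drank saline, so effects of the operation and of the drink cannot be told apart. The labels do not give the number of mice behind an array, the age of the mice or the time since the operation.

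Detoxification in hepatocytes runs in steps. Flavin monooxygenases, carboxylesterases, epoxide hydrolases and aldehyde dehydrogenases oxidise or hydrolyse a compound, and transferases then attach glutathione, glucuronic acid or sulfate so that transporters can export it into bile or blood. Many of these genes are known to answer to nuclear receptors, to the oxidative stress factor encoded by Nfe2l2 and, in liver, to clock output factors that bind the D-box, a short promoter element; glucocorticoids, the steroids that the adrenal cortex releases in a daily rhythm, act through a receptor of their own.

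Values are array signals in units, scaled to a common trimmed mean, and differences are on the log2 scale, where 1 is 2-fold. A gene counted as measured when the array software called it Present (above background) on at least 1 array. Of the 45 genes, 35 were measured, 34 of them on all 4 arrays. The other 10 (Gsta1, Ugt8a, Sult1c1, Sult2a2, Sult3a1, Sult4a1, Aldh18a1, Aldh1a2, Aldh1a3 and Aldh3a1) were Present on none, and their values are not read here. Because each group had 1 array, no difference has a replicate check, and differences were called by size alone: at least 2-fold, or by a looser rule at least 1.5-fold, with the brighter array Present. Signals of different probe sets are not compared as levels, and in whole liver fewer cells of a type and less RNA per cell cannot be told apart.

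All 8 measured hepatocyte markers were Present on each array, with a summed signal between 31844 and 33794. Of these, Apob alone passed 2-fold in a comparison, between the times of day in sham mice. The arrays had 5543 to 5865 Present probe sets and actin 3' to 5' ratios between 1.69 and 1.89. Summed signals of the 12 blood and immune cell markers on the array lay between 737 and 923 (6 were Present nowhere, Cd3e and S100a8 among them). Those of 8 endothelial markers were 488 and 503 at ZT2 against 377 and 374 at ZT14 (Pecam1 and Vwf were Present nowhere). The 4 red cell markers on the array, 2 of them measured, summed to 1760 at ZT2 and 1063 at ZT14 in sham mice. In ADX mice the sums were 1477 and 1969, and Hba-a1 passed 2-fold between ADX and sham at ZT14. The part of these cells in the values below was not tested.

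Gstt2, a theta class glutathione transferase, was higher at ZT14 than at ZT2 in both operations, by 2.49-fold within ADX mice. Sult1d1, a sulfotransferase for catecholamines, was higher at ZT14 in both by less than 2-fold. Fmo5 was higher at ZT14 in sham mice, Gstm6 was lower at ZT14 in sham mice, Gsta2 was higher at ZT14 in ADX mice, and Ephx2, which hydrolyses fatty acid epoxides, was lower in ADX than in sham mice at ZT14. Of the 34 genes Present on all arrays, the highest signal was at least 1.5-fold above the lowest for 9 (26.5%), against 31.5% of 3889 genes Present on all arrays. At 2-fold the count was 1 (2.94%, Gstt2) against 6.71%. The median ratio of highest to lowest signal was 1.28 for the members and 1.36 for those genes. These values are not matched for brightness: the median signal was 423 for measured members and 53.7 for measured genes. In the sham pair 65.7% of measured members differed by less than 1.25-fold, against 59.7% of measured genes and 73.2% of those of signal at least 100. In the ADX pair the shares were 74.3%, 60.0% and 72.2%.

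**Figure D1:**
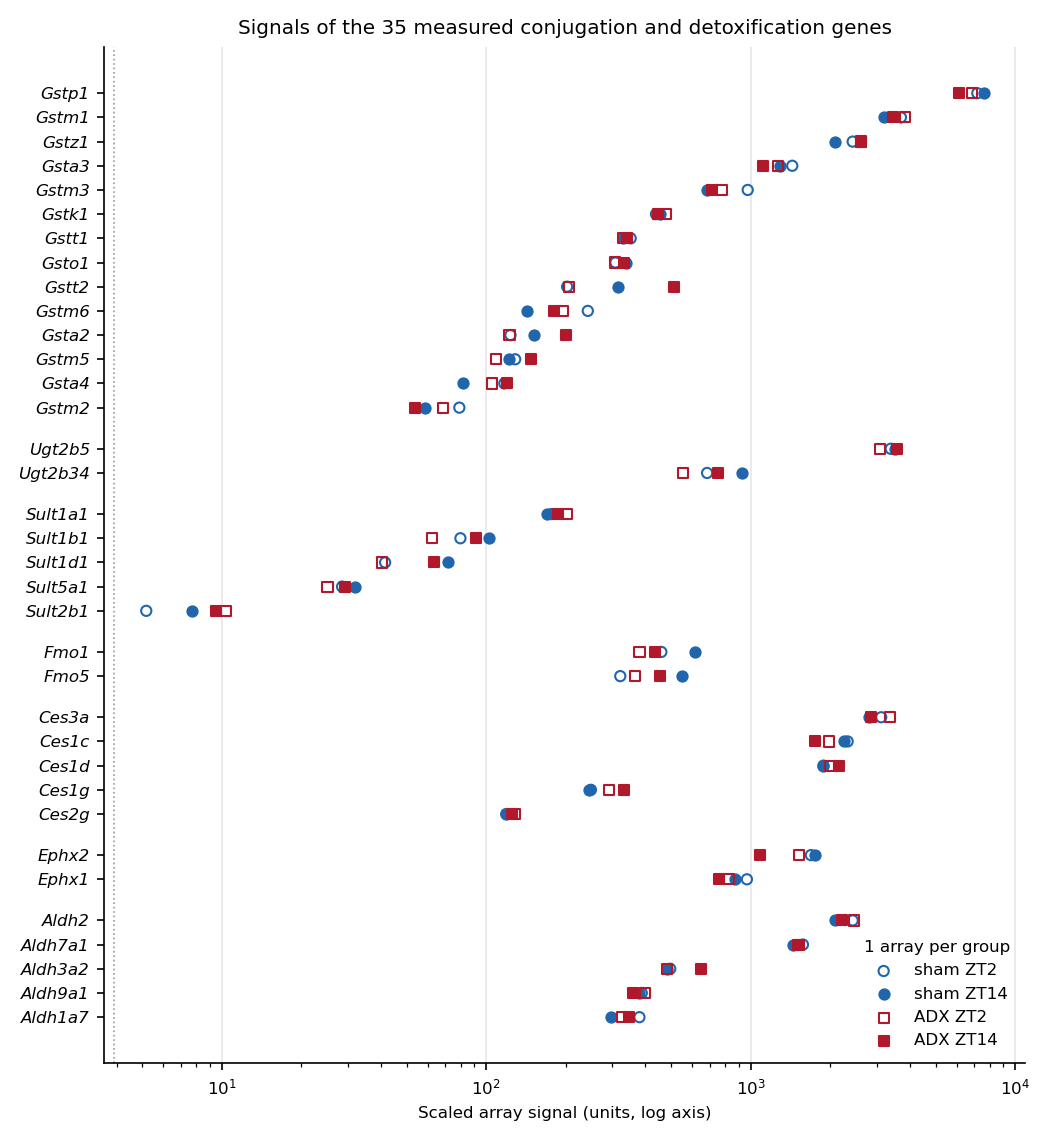
Scaled signal (horizontal log axis, units) of the 35 measured genes, grouped by family, with 1 point per array; blue circles are sham and red squares ADX, open for ZT2 and filled for ZT14, and the dotted line marks the floor of 3.91 units. For most genes the 4 points lie close together, from a 1.07-fold range for Gstt1 to a 2.53-fold range for Gstt2.

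Glutathione transferases were the largest family, and 14 of the 15 genes were measured. Gstt2 had signals of 202 at ZT2 and 315 at ZT14 in sham mice, and 206 and 512 in ADX mice. The ZT2 arrays were alike, both ZT14 arrays were above them, and the ADX ZT14 array was the highest of the 4. The ratio of ZT14 to ZT2 was 1.56 in sham (log2 0.64) and 2.49 in ADX (log2 1.31), a difference of 0.68 between the pairs that could not be tested with 1 array per group. Its close relative Gstt1, separated from it by 1 protein-coding gene in the RefSeq annotation (GRCm38.p6), gave 352, 329, 329 and 339.7 in the same order of groups. The Gstt1 signals spanned 1.07-fold, the smallest range among the 34 genes Present on all arrays, and did not follow the order seen for Gstt2.

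The mu class genes lie side by side in the genome, with no other protein-coding gene between Gstm1 and Gstm2, Gstm2 and Gstm3, or Gstm3 and Gstm6, and 1 between Gstm6 and Gstm5. In the sham pair all 5 had negative log2 differences (ZT14 minus ZT2) under each of 4 scalings tried (trimmed mean, as deposited, quantile and equal medians). Their median was -0.43 with the trimmed mean and lay between -0.44 and -0.51 with the other scalings. In the ADX pair 4 of 5 were negative, with a median of -0.11 with the trimmed mean. Gstm6 had signals of 242 at ZT2 and 142 at ZT14 in sham mice, and 194 and 180.0 in ADX mice. It was thus 1.70-fold lower at ZT14 in sham mice, with a log2 difference of -0.77, and differed by -0.11 in ADX mice. A separate probe set for Gstm6 gave 217, 112, 137 and 169, that is -0.96 in sham and 0.30 in ADX. Both probe sets placed sham ZT2 highest and sham ZT14 lowest, and they had opposite signs in the ADX pair.

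Other mu class signals followed the same order in the sham pair with smaller sizes. Gstm3 read 974, 685, 775 and 717, and a separate Gstm3 probe set gave similar sham (-0.55) and ADX (-0.12) differences to its own -0.51 and -0.11. Gstm2 read 79.1, 58.8, 68.8 and 53.6, with -0.43 in sham and -0.36 in ADX. Gstm1 read 3697, 3186, 3819 and 3461, with -0.21 and -0.14. Gstm5 was the exception: its signals of 129, 122, 109 and 147 gave -0.08 in sham and 0.43 in ADX, while its separate probe set gave -0.40 and -0.37. The Gstm1, Gstm3 and Gstm5 probe sets carry the manufacturer's suffix for probes shared within a family, so their signals may mix these near-identical transcripts.

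Alpha class members differed among themselves. Gsta2, whose enzyme also reduces lipid hydroperoxides, had signals of 123 at ZT2 and 152 at ZT14 in sham mice, and 122 and 201 in ADX mice. Like Gstt2 it was level between the ZT2 arrays, above them on both ZT14 arrays and highest on ADX ZT14, with log2 day-night differences of 0.30 and 0.71. Gsta4, which clears hydroxynonenal, read 117, 81.5, 105 and 120.0 in that order. Its sham ZT14 array stood below the other 3, giving -0.52 in the sham pair and 0.20 in the ADX pair. Gsta3, known for conjugating the aflatoxin epoxide in mouse liver, read 1435, 1285, 1268 and 1115, with all 4 log2 differences between -0.16 and -0.20.

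The remaining classes were nearly level. Gstp1, the pi class enzyme and known to be stronger in male than in female mouse liver, read 7187 at ZT2 and 7588 at ZT14 in sham mice, and 6876 and 6126 in ADX mice. Both ADX arrays were below both sham arrays, by -0.06 at ZT2 and -0.31 at ZT14. Gstz1, the isomerase of tyrosine breakdown, read 2429, 2087, 2616 and 2614. Gstk1, the kappa class enzyme of mitochondria and peroxisomes, stayed between 438 and 479 units, and Gsto1, which reduces dehydroascorbate, between 307 and 337.

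Of the glucuronosyltransferases, 2 of 3 were measured. Ugt2b34 had signals of 684 at ZT2 and 925 at ZT14 in sham mice, and 555 and 751 in ADX mice. Each ZT14 array exceeded the ZT2 array of its operation by a log2 difference of 0.44, and each ADX array was below the sham array of its time by -0.30; its day-night difference was of the same size in both operations. Ugt2b5 read 3383, 3501, 3076 and 3560.3, with day-night differences of 0.05 in sham (negative with the signals as deposited) and 0.21 in ADX. Its probe set is also of the shared kind, and the family is rich in near-identical transcripts.

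Sulfotransferases were measured for 5 of 9 genes. Sult1d1 had signals of 41.5 at ZT2 and 71.6 at ZT14 in sham mice, and 40.5 and 63.3 in ADX mice. The ZT2 arrays were alike and both ZT14 arrays lay above them, by 1.73-fold in sham (log2 0.79) and 1.56-fold in ADX (log2 0.65). Sult1b1, which sulfates thyroid hormones and phenols and is the direct neighbour of Sult1d1, read 79.9, 103, 62.1 and 91.6. Its order of arrays was the same at each time, with day-night differences of 0.36 and 0.56, neither past 1.5-fold.

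The Sult1d1 promoter is shown because Sult1d1 and Gstt2 were the members past 1.5-fold at both operations, and the promoter table used here holds the former. The window is the 250 bases before the transcription start in RefSeq, build GRCm38.p6, chr5:87569007-87569256, minus strand, and it held no match to any motif searched, so it has no capitals.
Sult1d1: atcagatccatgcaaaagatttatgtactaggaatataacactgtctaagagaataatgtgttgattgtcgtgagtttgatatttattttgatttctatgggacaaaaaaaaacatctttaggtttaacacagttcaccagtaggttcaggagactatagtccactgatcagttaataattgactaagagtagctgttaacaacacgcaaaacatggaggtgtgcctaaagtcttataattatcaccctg

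Sult1a1, the main phenol sulfotransferase, read 177 at ZT2 and 169.6 at ZT14 in sham mice, and 202 and 187 in ADX mice, with both ADX arrays above both sham arrays by 0.20 and 0.14. Sult5a1 stayed between 25.1 and 31.9 units. Sult2b1, a cholesterol sulfotransferase, was Present only on ADX ZT2, with signals of 5.18, 7.72, 10.3 and 9.50. Its ADX ZT2 signal was 1.99-fold the Absent sham ZT2 signal as read, close to the floor of 3.91. The 4 measured genes Sult1b1, Sult1d1, Ugt2b5 and Ugt2b34 lie near each other on chromosome 5, with 5 protein-coding genes between Sult1b1 and Ugt2b5 and 3 between Ugt2b5 and Ugt2b34. All 4 had positive day-night differences in both pairs, with the Ugt2b5 exception under the deposited scale given above. Among the 5007 measured genes, 1555 were positive in both pairs, and a link with position was not tested.

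Both flavin monooxygenases, which oxygenate nitrogen and sulfur of drugs and, for Fmo5, ketones, had positive day-night differences in both pairs under each of the 4 scalings. Fmo5 had signals of 321 at ZT2 and 549.8 at ZT14 in sham mice, and 366 and 454 in ADX mice. It was 1.71-fold higher at ZT14 in sham (log2 0.78) and differed by 0.31 in ADX, so that its arrays spread further apart in sham than in ADX. Fmo1 read 459, 616, 379 and 435. The sham ZT14 array stood above the other 3, and each ADX array was below the sham array of its time, by -0.28 at ZT2 and -0.50 at ZT14.

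Carboxylesterases, which cleave ester drugs and stored lipid, were measured for 5 of 5 genes, and none reached 1.5-fold in any comparison. Ces3a, a lipid hydrolase of the endoplasmic reticulum, read 3114 at ZT2 and 2790.0 at ZT14 in sham mice, and 3353 and 2849 in ADX mice. Ces1d, the triacylglycerol hydrolase, read 1883, 1878, 1992 and 2165 on a probe set of the shared kind. Ces1c, the esterase secreted into plasma, read 2324, 2245, 1973 and 1756. The ADX arrays were below the sham arrays for Ces1c at both times, by -0.24 and -0.35. Ces1g had the opposite sign, with 249, 244, 291 and 332 units and ADX minus sham differences of 0.23 and 0.45. Ces2g stayed between 119 and 129 units. Positive ADX minus sham differences were seen for 4 of the 5 at each time, against 1 of 5 at ZT2 and 2 of 5 at ZT14 with the signals as deposited. With equal medians 3 of 5 were positive at ZT14.

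Ephx2, the soluble epoxide hydrolase, had signals of 1688 at ZT2 and 1742 at ZT14 in sham mice, and 1522 and 1086 in ADX mice. The ADX ZT14 array stood apart from the other 3, 1.60-fold below sham ZT14 (log2 -0.68) and -0.49 from ADX ZT2. Ephx1, the microsomal enzyme that opens xenobiotic epoxides, read 967, 875, 829.9 and 757. Both genes had negative ADX minus sham differences at both times under each of the 4 scalings, with Ephx1 at -0.22 and -0.21.

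Aldehyde dehydrogenases were measured for 5 of 9 genes, and none reached 1.5-fold on the probe set used. Aldh2, the mitochondrial enzyme that clears acetaldehyde, read 2429 at ZT2 and 2079.8 at ZT14 in sham mice, and 2451 and 2214 in ADX mice. Aldh7a1, of lysine breakdown, read 1576, 1443, 1508 and 1527. Aldh3a2, which oxidises fatty aldehydes, read 496, 481, 481 and 651. For Aldh3a2 the ADX ZT14 array stood above 3 nearly equal ones, by 0.44 against ADX ZT2 and against sham ZT14. A separate probe set of lower signal read 80.0, 81.6, 55.8 and 110, with ADX ZT2 the lowest, and gave 0.99 and 0.44. Aldh1a7, a close relative of Aldh1a1, read 379, 296, 327 and 347, and Aldh9a1, of carnitine synthesis, stayed between 358 and 399.6. The sham day-night difference was negative for all 5 under 3 of the 4 scalings, and for 3 of 5 after quantile normalization. Of separate probe sets Present on all arrays, those of Aldh2 gave -0.12 and 0.16, that of Aldh3a2 0.03 and that of Aldh7a1 -0.01. The probe sets used for Aldh2, Aldh7a1 and Aldh9a1 are also of the shared kind.

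The day-night comparison in sham mice asks how these genes stand at ZT14 against ZT2 with adrenal glands in place. No member passed 2-fold, against 5.17% of the 5007 measured genes. At 1.5-fold, 3 of 35 were higher at ZT14 (Sult1d1, Fmo5 and Gstt2), where 8.25% of genes were higher, and 1 was lower (Gstm6), where 7.57% were lower. Among genes with a mean signal of at least 100, 3 of 30 members passed 1.5-fold in either direction, against 10.1%. The shares of members are near those of all genes. The median log2 difference was -0.04 for the members and -0.00 for all measured genes, with 14 members positive and 21 negative.

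In ADX mice the same comparison gave 1 member past 2-fold, Gstt2, against 4.63% of genes. At 1.5-fold, 3 members were higher at ZT14 (Gstt2, Gsta2 and Sult1d1), where 7.89% of genes were, and none was lower, where 7.25% were. Among genes of signal at least 100 the count was 2 of 30 against 9.83%. The median was 0.02 for the members, with 18 positive and 17 negative, and 0.01 for all measured genes. Both pairs, which share no array, had Gstt2 and Sult1d1 past 1.5-fold higher, 2 of 35 members where 2.18% of genes were higher in both; no member was lower in both, where 2.22% of genes were. With the signals as deposited, Gstt2 stayed short of 1.5-fold in the sham pair, and 1 member was higher in both. Signs matched between the pairs for 23 of 35 members, 10 positive and 13 negative, and were opposite for 12. Among the 5007 measured genes, 1555 were positive and 1540 negative in both pairs and 1874 opposite, shares close to those of the members.

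**Figure D2:**
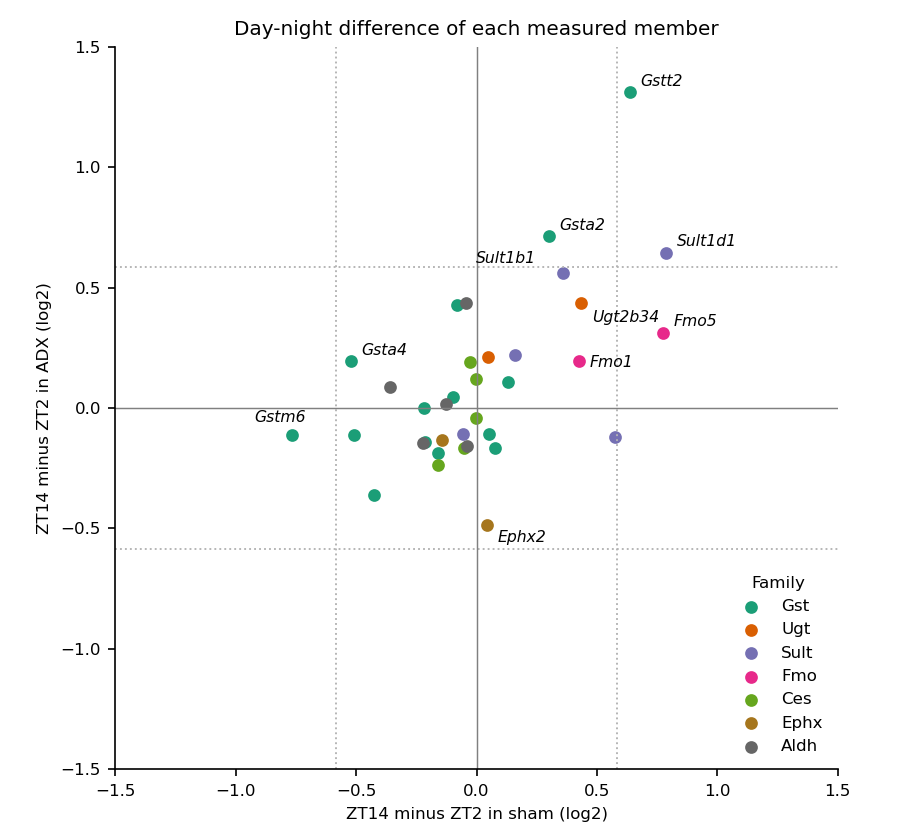
Log2 difference of ZT14 minus ZT2 in sham (horizontal axis) against the same in ADX (vertical axis) for the 35 measured genes, 1 point per gene, coloured by family; dotted lines mark 1.5-fold. Gstt2 (0.64 and 1.31) and Sult1d1 (0.79 and 0.65) lie beyond both upper lines, and no gene lies beyond both lower lines.

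The additive fit asks how large each difference is against the spread that time and operation leave between arrays. It was made with limma on 4559 genes Present on at least 2 arrays and has 1 residual degree of freedom. For the day-night effect, limma gave an unadjusted p under 0.05 for 6 of 34 members, each positive (Sult1d1, Gstt2, Ugt2b34, Sult1b1, Fmo5 and Gsta2), against 13.4% of genes; over the alternative fits this count lay between 4 and 9. After Benjamini-Hochberg adjustment over all genes 0 of 34 passed, against 0.0439% of genes (2 genes). The Sult1d1 estimate was 0.72 (SE 0.15, limma adjusted p 0.263) and that of Gstt2 was 0.98 (SE 0.23, limma adjusted p 0.275), each higher at ZT14 in 2 of 2 pairs. Ugt2b34 followed at 0.44 (SE 0.14, limma adjusted p 0.355). With 1 array per group, the residual of a gene is the difference between its sham and ADX pairs. A day-night difference of unlike size in the 2 operations, as read for Gstt2, is thus counted as spread. The spread of each gene was also moderated over all genes fitted, so such a p does not measure a spread between mice.

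The operation comparison asks what differs between ADX and sham mice at 1 time of day. At ZT2 no member passed 2-fold, against 2.14% of genes; at 1.5-fold 1 member was higher in ADX (the dim Sult2b1), where 5.67% of genes were, and none was lower, where 3.3% were. No member of signal at least 100 passed 1.5-fold at ZT2, against 2.49%, and 32 of 35 members differed by less than 1.25-fold (91.4%, against 71.6% of measured genes and 88.4% of those of signal at least 100). At ZT14 no member passed 2-fold, against 3.14%; Gstt2 was higher by at least 1.5-fold, where 6.73% of genes were, and Ephx2 lower, where 5.19% were. The Gstt2 call ended, and Fmo1 was also called lower, with the signals as deposited. On the scaled signals, Gstt2 and Ephx2 were 2 of 30 members of signal at least 100, against 5.85%. Here 25 of 35 members differed by less than 1.25-fold (71.4%, against 63.3% and 76.7%).

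No member was past 1.5-fold in the same direction at both times, where 0.779% of genes were higher and 0.32% lower in ADX at both. In the same limma fit, the operation effect had an unadjusted p under 0.05 for 0 of 34 members, against 5.48% of genes (250 genes) and up to 5 members under the alternative fits, and an adjusted p under 0.05 for 0 members and for 0% of genes. The smallest limma adjusted p among the members was 0.815, for Fmo1 at -0.39 (SE 0.16), lower in ADX at 2 of 2 times. Ces1g followed at 0.34 (SE 0.16, limma adjusted p 0.819), and Ephx2 stood at -0.42 (SE 0.20, limma adjusted p 0.819).

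**Figure D3:**
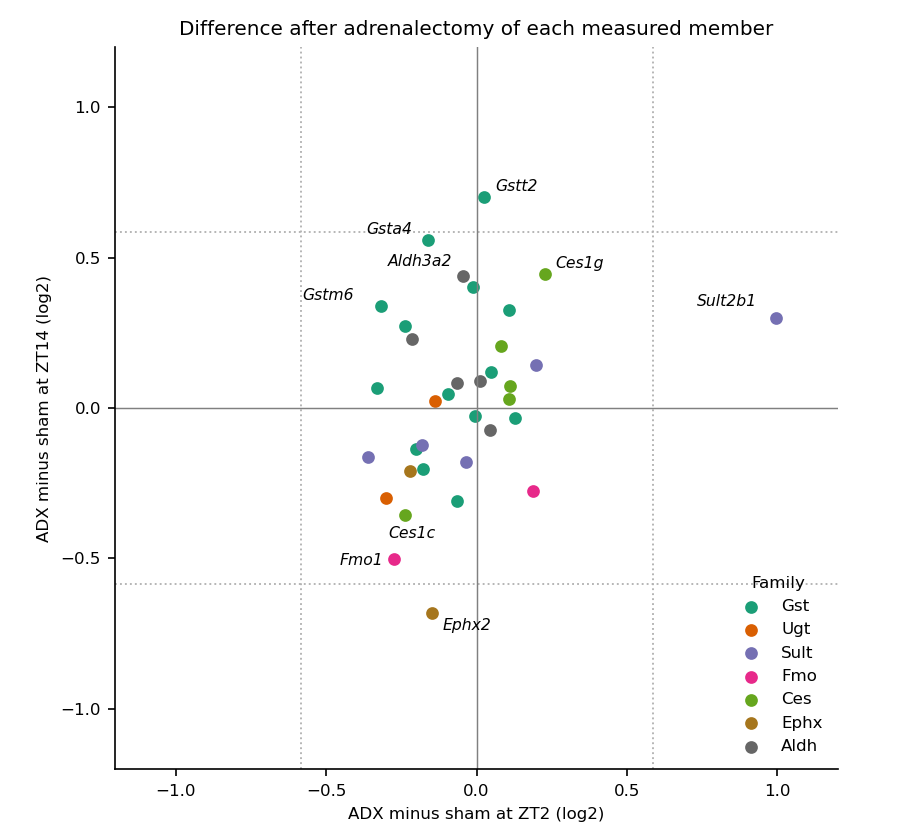
Log2 difference of ADX minus sham at ZT2 (horizontal axis) against the same at ZT14 (vertical axis) for the 35 measured genes, 1 point per gene, coloured by family; dotted lines mark 1.5-fold. Gstt2 (0.03 and 0.70) and Ephx2 (-0.15 and -0.68) pass 1.5-fold at ZT14 only, and Sult2b1 (0.99 and 0.30), close to the floor, at ZT2 only.

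**Figure D4:**
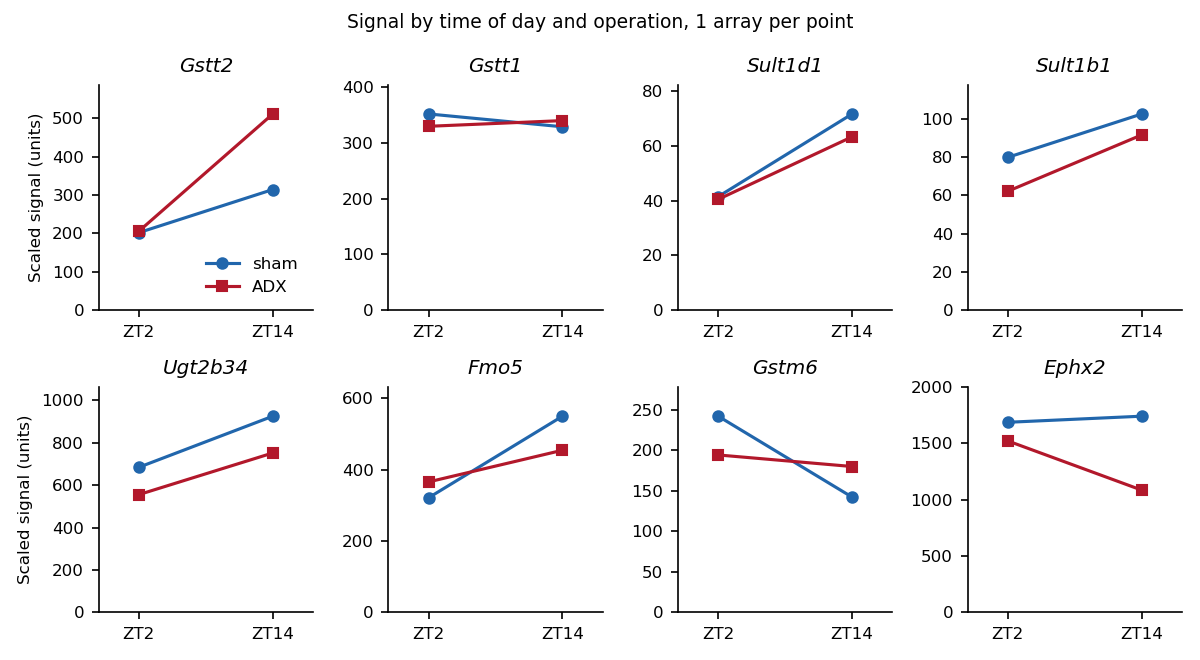
Scaled signal (vertical axes from 0, units) of 8 members at ZT2 and ZT14, with blue circles for sham and red squares for ADX, 1 array per point and lines joining the arrays of 1 operation. Gstt2, Sult1d1, Sult1b1, Ugt2b34 and Fmo5 are higher at ZT14 in both operations, Gstt1 is level, Gstm6 is lowest on sham ZT14 (142) and Ephx2 on ADX ZT14 (1086).

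Genes around these enzymes were read from lists of regulators, co-substrate supply, other conjugating enzymes and exporters. Of 21 measured regulators, 2 were at least 2-fold higher at ZT14 in each operation and 1 was lower. These were Dbp, a D-box activator, at least 25.1-fold higher in sham and at least 29.6-fold in ADX; Tef, its relative, 5.95-fold and 9.41-fold higher; and Nfil3, the D-box repressor, 2.73-fold and 2.71-fold lower. None of the 21 passed 2-fold between operations. Among all measured genes, 5.17% passed 2-fold in either direction in the sham pair and 4.63% in the ADX pair. Between operations 2.14% did at ZT2 and 3.14% at ZT14. The same shares stand beside the lists that follow. Among 13 measured genes of co-substrate supply, Gclc, the catalytic subunit of the rate-limiting enzyme of glutathione synthesis, was 2.29-fold lower at ZT14 in sham, with signals of 536 at ZT2 and 234 at ZT14 in sham mice, and 436 and 317 in ADX mice. Papss2, which makes the sulfate donor, read 117, 175, 101 and 211 and was 2.09-fold higher at ZT14 in ADX. Mat1a, of methyl donor synthesis, was 2.22-fold higher in ADX than in sham at ZT14, at a dim 14.5 units against an Absent sham signal of 6.55. Both signals lie under 16.6, the 90th percentile of Absent signals.

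None of 14 measured genes of other conjugation enzymes passed 2-fold in any of the 4 comparisons. Of 6 measured exporters 1 did, the dim Abcb1a (9.39 units on ADX ZT14, Present on that array alone), which was higher at ZT14 than at ZT2 in ADX. It counted as measured only through the array on which it was high. Several sulfotransferases and Gstp1 are known to differ between the sexes, so lists of sex-biased liver genes were read too. Of 6 measured female-biased genes, 3 (Cyp2b9, Cyp2b13 and Hao2) were at least 2-fold higher in ADX than in sham at ZT14. At ZT2 1 was (Cyp2b9). Among all measured genes, 3.14% at ZT14 and 2.14% at ZT2 passed 2-fold in either direction. Cyp2b13 and Hao2 were Present on ADX ZT14 alone, at a dim 16.5 and 12.7 units. They thus counted as measured only through the array on which they were high. The list, with 11 genes on the array, was also chosen with earlier results of these data known. Its counts can therefore not be weighed against the shares of all genes. At 1.5-fold, 4 of the 6 were higher and 1 was lower in ADX at ZT14. In ADX mice Abcd2 joined Cyp2b9, Cyp2b13 and Hao2 in being at least 2-fold higher at ZT14 than at ZT2, where 4.63% of genes passed 2-fold in either direction. Of 9 measured male-biased genes, Elovl3 was more than 2-fold lower at ZT14 in both operations. In either direction 5.17% of genes passed 2-fold in the sham pair and 4.63% in the ADX pair. None of the 9 passed 2-fold between operations. Their median ADX minus sham difference was -0.10 at ZT2 and -0.28 at ZT14, against 0.01 and 0.03 for all measured genes. The female-biased Sult2a2 and Sult3a1 were Present on none of the 4 arrays, and the part of sex-biased expression in the members' values was not tested.

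Promoter windows were searched for 4 motifs because clock output and glucocorticoid factors bind such elements. RefSeq windows were held for 33 of the 45 genes (39 windows of 250 bases before the start); Gstt2 and Ephx2 were not among them. The D-box (TTATGTAA or TTACGTAA, both strands) was in 2 of the 39, of Ces1c and Ces1g, against 0.931% of all 32851 windows. Those stretches are shown, with the D-box in capitals, since D-box factors differed most between the times of day among the listed regulators; they were chosen after the matches were seen. Coordinates are of GRCm38.p6, minus strand: chr8:93131354-93131393 for Ces1c, 94 bases before the start at the motif's far end, and chr8:93337418-93337457 for Ces1g, 232 bases before it.
Ces1c: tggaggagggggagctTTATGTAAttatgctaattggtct
Ces1g: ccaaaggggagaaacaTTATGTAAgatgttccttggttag

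Day-night differences of these 2 genes were small, -0.05 and -0.17 for Ces1c and -0.03 and 0.19 for Ces1g in sham and ADX. The E-box CACGTG was in 2 of the 39 windows (Aldh18a1 and Aldh3a2), against 6.02% of all windows. The antioxidant element TGACNNNGC was in 4 (10.3%; Gsta3, Gstm5, Aldh9a1 and Aldh1a2), against 10.2%. The 6 bases AGAACA, which glucocorticoid receptors bind as part of a longer site, were in 9 (23.1%), against 16.1%. These were windows of Ugt2b34, Sult1a1, Sult1b1, Sult1c1, Gstm1, Gstm6, Ephx1 and Ces2g. A match is a string of letters and not a bound site.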

How the data were processed

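Per the file headers, the authors deposited for each array and probe set a Signal (an intensity on a linear scale), a detection p-value and the call made from it. Only the call was used of the last 2. The scaling target and the software are not given here by any label or header. Each array was scaled to a common 2% trimmed mean (factors 0.925 and 0.977 for sham at ZT2 and ZT14, 1.04 and 1.07 for ADX). Signals under a floor of 3.91, the median Absent signal, were set to it and log2 was taken. Control probe sets (66) were left out. Each gene with a probe set of 1 symbol was represented by the set of highest mean signal. A fold against a signal raised to the floor is given as at least that fold, and its size depends on the floor. A fold against an Absent signal above the floor is given as read and is not a bound.

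The run sheets deposited with the arrays show 1 hybridisation day and a wash module for each array; module and group cannot be told apart, and other batches are not recorded there. Time and operation were fitted additively with limma 3.58.1 in R 4.3.3 over all genes Present on at least 2 arrays, and p-values were adjusted after Benjamini and Hochberg. Signals were handled in pandas 2.3.3 and NumPy 2.4.6 under Python 3.11.15. Steps were tested on simulated data. The number of arrays limits the precision. The members and lists were chosen with earlier results of these data known. In addition to the family members, the genes named from the pathway lists are those past 2-fold in a comparison. The cell type markers named are those past 2-fold in the marker lists given, and examples of those Present on no array, chosen after their calls were seen. Alternatives changed the scaling, the floor, the threshold, the Present filter, the probe set rule and the fit.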

Additional observations from a re-analysis of the deposited data

How the results depend on the processing

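With the signals as deposited, which moved the median of all measured genes by -0.08, -0.02, -0.16 and -0.10 (sham pair, ADX pair, ZT2, ZT14), 3 members were past 1.5-fold lower in the sham pair (main count 1), 0 past it higher and 2 lower in ADX at ZT14 (main 1 and 1), and 1 was higher in both day-night pairs (main 2); the sign counts at ZT2 became 4 positive and 31 negative (main 13 and 22). With the mean of all probe sets, 2 were higher and 2 lower in ADX at ZT14. In ADX against sham at ZT2, 0 members were past 1.5-fold higher (main 1, Sult2b1) with the floor doubled, with a floor of 16.6 units, with Present calls required on both arrays, or for signals of at least 100, a choice made after seeing the data. At 3-fold 0 members were called in the ADX pair (main 1), and at 2-fold 0 were called in both day-night pairs. Of 1120 single differences under alternatives, 1103 kept their side of 1.5-fold and stayed within the spread of all genes, and none that was called changed sign. For the limma fit 0 members passed adjustment under each alternative, with lowest adjusted p between 0.0664 and 0.428 (day-night) and between 0.556 and 0.9999 (operation). Members with an unadjusted p under 0.05 numbered 6 for the day-night effect, 4 as deposited, with the floor of 16.6, with no filter or without the operation term, and 9 with a trend on mean signal. For the operation effect they numbered 0, 5 with a trend, 4 as deposited or with the floor of 16.6, and 2 with the mean of probe sets or no filter. The count of all genes past adjustment for the day-night effect was 2 and became 72 with a trend on mean signal, 18 as deposited, 11 without the operation term, 10 after quantile normalization, 1 with the mean of probe sets or with Present calls on all arrays, and 0 with no filter or a higher floor. Leaving out an array would leave a group empty, so it was not run. No paired analysis was possible because the labels give no replicate numbers.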

Other observations

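A probe set that the annotation gives 8 Ugt symbols was left out of the families because it names no single gene. It was Present on all 4 arrays, with signals of 2026 at ZT2 and 1982 at ZT14 in sham mice, and 2090.2 and 2163 in ADX mice, so its log2 differences lay between -0.03 and 0.13. Of the 45 genes, 13 had 17 further probe sets, 8 of them (for 7 genes) Present on all arrays. The median gap in log2 difference between such a probe set and the one used was 0.13, and the largest was 0.80, for Gstm5 in the ADX pair.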
